A study of Mus musculus with 9 samples.

Results

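Alternative activation markers are genes that macrophages raise, or keep high, in the state that interleukin-4 (IL-4) and interleukin-13 induce. The 9 genes Clec10a, Mrc1, Mgl2, Retnla, Chil3, Folr2, Cd163, Stab1 and Fn1 were read from microarrays of mouse bone marrow-derived macrophages exposed to the matrix glycoprotein tenascin C (TNC). A gene was read through every probe set that the platform annotation gave to that gene alone. All 9 genes were found, with 10 probe sets, among 18193 genes and 45037 probe sets. Fn1 had 2 probe sets and the other genes 1 each.

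The macrophages were grown from the marrow of BALB/c mice aged 8 to 10 weeks, for 7 days with macrophage colony-stimulating factor (M-CSF). They were then held overnight in 1% fetal bovine serum, still with M-CSF. Each of 3 groups held 3 arrays. In TNC + TLR4i, cells received 3 µM TAK-242, a small molecule that blocks Toll-like receptor 4 (TLR4) signalling, for 1 h and then 2 µg/ml recombinant TNC for 6 h. In TNC + vehicle, 0.1% DMSO for 1 h took the place of the inhibitor. For the untreated cells the labels name neither TNC nor a vehicle, and no group had vehicle alone or inhibitor alone, so an effect of DMSO cannot be told apart from that of TNC against untreated cells. The labels call the arrays biological replicates without saying whether they came from separate mice, so the p-values measure the spread between these arrays, which may be technical. No IL-4 or interleukin-13 is named among the additions.

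IL-4 and interleukin-13 bind receptors that share the IL-4 receptor alpha chain, and the kinases attached to them activate the transcription factor STAT6. STAT6 enters the nucleus, binds paired half-sites in promoters and enhancers, and switches on Retnla, Chil3, Arg1, Mrc1 and the galactose-type lectins in mouse macrophages. Several markers of the set do not depend on that cytokine pair alone: Folr2, Cd163 and Stab1 are also high in resident macrophages, and Folr2 and Stab1 in cells kept in M-CSF. Signals through TLR4, which senses bacterial lipopolysaccharide, drive the opposing inflammatory state. These comparisons ask which of the markers moved when TNC was added, and which moved when TLR4 was blocked first.

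Values are log2 signals after robust multiarray averaging (RMA), so a difference of 1 is a doubling. Dim probe sets sit on the floor that RMA leaves, which understates the fold changes of weak genes, and no detection call was used. Array medians lay between 6.72 and 6.74, arrays of a group correlated at 0.994 to 0.996, and TNC + vehicle replicate 1 had the lowest of these correlations. All 8 macrophage markers were above the median of all probe sets (6.72) in each group, and 1 of them, the Fc receptor Fcgr1 (named after its value was seen), was called higher with TNC (0.94) and lower in TNC + TLR4i against TNC + vehicle (-1.15). As a check of the treatment, Tnf, the inflammatory cytokine, differed by 2.67 in TNC + vehicle against untreated cells, and its difference in TNC + TLR4i against TNC + vehicle was -2.79. Il1b differed by 3.94 and -4.28 in these 2 comparisons, and Acod1, the itaconate-producing enzyme, by 6.01 and -6.41.

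Of the 9 markers, 3 fell with TNC: the lectin Clec10a, the mannose receptor Mrc1 and the scavenger receptor Stab1. The same 3 rose when TLR4 was blocked before TNC. The call needed both an adjusted p under 0.05 (limma, Benjamini-Hochberg over all probe sets) and a change of at least 1.5-fold. In TNC + vehicle against untreated cells, 3 markers were called lower and 0 higher, beside 4.05% of all genes called lower and 3.74% called higher. At an adjusted p under 0.05 and any fold the count was 4 of 9, beside 28.1% of all genes. At an unadjusted p under 0.05, 4 were lower and 1 higher, beside 20.8% of all genes lower and 17.8% higher. Between TNC + TLR4i and TNC + vehicle, 3 were called higher with the inhibitor and 0 lower, beside 4.25% of all genes higher and 4.05% lower. With any fold the count was again 3, beside 28.5% of all genes. At an unadjusted p under 0.05, 4 were higher and 0 lower, beside 22.2% of all genes higher and 16.6% lower.

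Limma called 0 of the 9 in TNC + TLR4i against untreated cells, beside 0.0605% of all genes called higher and 0.198% lower. With any fold it was also 0, beside 0.803% of all genes, and at an unadjusted p under 0.05 it was 1 higher and 3 lower, beside 4.83% of all genes higher and 4.63% lower. The median difference of the 9 markers was -0.12 in TNC + vehicle against untreated (0.01 over all genes), 0.14 in TNC + TLR4i against TNC + vehicle (0.00 over all genes) and -0.12 in TNC + TLR4i against untreated (0.01 over all genes). The 3 comparisons share arrays in pairs, so that the TNC + vehicle arrays enter both of the first 2, and a fall in one and a rise in the other are not independent.

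**Figure D1:**
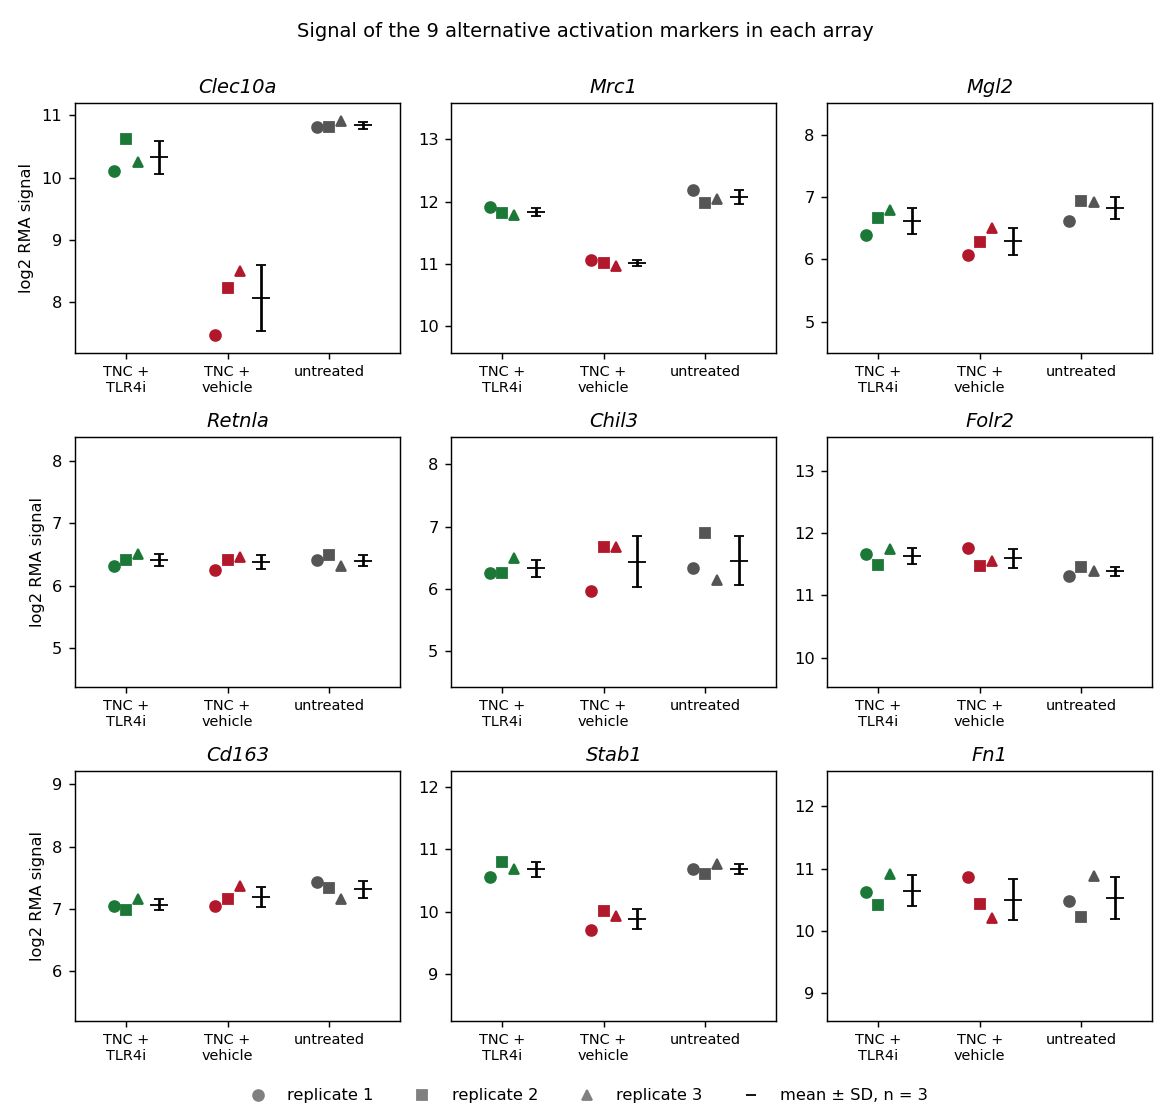
Log2 RMA signal (y axis, the same span of 4 log2 units in every panel, at a height set by the gene) of the 9 markers in each array, by group (x axis); points are arrays, shaped by replicate number, and bars are the mean ± SD of 3 arrays. The TNC + vehicle arrays lay below the others for Clec10a, Mrc1 and Stab1, and within or near them for the other 6 genes.

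Clec10a encodes the macrophage galactose-type lectin, a surface receptor that binds glycans ending in galactose or N-acetylgalactosamine. Its log2 signal was 10.10, 10.62 and 10.25 in TNC + TLR4i, 7.48, 8.23 and 8.50 in TNC + vehicle, and 10.81, 10.80 and 10.91 in untreated arrays. The highest TNC + vehicle array was below the lowest of either other group, and untreated arrays lay closest together. The means were 10.32 ± 0.268 in TNC + TLR4i, 8.07 ± 0.531 in TNC + vehicle and 10.84 ± 0.0559 in untreated arrays (SD, n = 3 each). Clec10a was thus 6.83-fold lower in TNC + vehicle than in untreated cells (log2 difference -2.77 ± 0.19 SE, 95% confidence interval -3.19 to -2.35, adjusted p = 8.29e-07). It was 4.77-fold higher in TNC + TLR4i than in TNC + vehicle (2.25 ± 0.21 SE, interval 1.80 to 2.71, adjusted p = 6.66e-06).

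With the inhibitor, Clec10a stayed below untreated cells in all 3 arrays, by 0.52 on average (log2 difference -0.52 ± 0.11 SE, interval -0.75 to -0.28). That is 1.43-fold, under the minimum of 1.5-fold, and the adjusted p was 0.0584 (limma), so it was not called. This depended on TNC + TLR4i replicate 2 and on the fit. Without that array the difference was -0.67 with an adjusted p of 0.00417, which is called. Over the 6 fits that each left out 1 array the adjusted p ran from 0.00417 to 0.237. With every array kept, it was 0.536 in 1 fit over all 9 arrays and 0.165 with trend and robust eBayes (limma). It was 0.0491 with cyclic loess and 0.0461 with array weights, where the difference stayed under the minimum fold. The difference in TNC + vehicle against untreated ran from -2.99 to -2.47 with each array left out in turn, and that in TNC + TLR4i against TNC + vehicle from 1.96 to 2.47.

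TNC + vehicle replicate 1 had the lowest Clec10a value of all 9 arrays. In that array 8 of 9 endothelial markers and 7 of 8 fibroblast markers were higher than in the other TNC + vehicle arrays, by a median of 0.45 and 0.32. The share of all genes higher in that array was not computed, so these counts have no background, and their cause was not tested. The summed linear signal of the endothelial markers was 823 to 846 in TNC + TLR4i, 1483 to 1682 in TNC + vehicle and 890 to 913 in untreated arrays, and 1 endothelial marker, Kdr, was called higher with TNC (1.63). In TNC + TLR4i against TNC + vehicle 2 were called lower, Kdr (-1.96) and Cdh5 (-0.63), both named after their values were seen. Without Kdr the sum was 641 to 674 in TNC + TLR4i, 1170, 718 and 715 in TNC + vehicle replicates 1, 2 and 3, and 673 to 692 in untreated arrays. Without replicate 1, Clec10a differed by -2.47 in TNC + vehicle against untreated and by 1.96 in TNC + TLR4i against TNC + vehicle. For dendritic cells, which also carry these lectins, 0 of 6 measured markers were called in each comparison, beside the shares of all genes given above. Their summed signal was 922 to 973 in TNC + TLR4i, 916 to 1024 in TNC + vehicle and 884 to 993 in untreated arrays. Of the 6, 3 were under the median of all probe sets in TNC + TLR4i, 3 in TNC + vehicle and 4 in untreated arrays, so a change could be missed. In bulk RNA, fewer cells with a transcript and less transcript per cell cannot be told apart.

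Mgl2 encodes the sister lectin of Clec10a, and the pair lie side by side on chromosome 11 with 0 protein-coding genes between them. The probe set of Mgl2 was dim, with a mean of 6.58 over the 9 arrays, under the median of all probe sets. Its log2 signal was 6.39, 6.66 and 6.80 in TNC + TLR4i, 6.08, 6.28 and 6.50 in TNC + vehicle, and 6.62, 6.93 and 6.93 in untreated arrays. The TNC + vehicle arrays were all below the untreated arrays but overlapped with TNC + TLR4i. Mgl2 was 1.45-fold lower in TNC + vehicle than in untreated cells (log2 difference -0.54 ± 0.11 SE, interval -0.79 to -0.29, adjusted p = 0.00440), which passed the test but not the minimum fold. Without untreated replicate 1 it differed by -0.64, and without TNC + vehicle replicate 3 by -0.65, and both were called. In TNC + TLR4i against TNC + vehicle the difference was 0.33 ± 0.12 SE (interval 0.07 to 0.59, adjusted p = 0.0691), and against untreated cells -0.21 ± 0.11 SE (adjusted p = 0.661), neither called.

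Mrc1 encodes the mannose receptor, which takes up glycoproteins ending in mannose, fucose or N-acetylglucosamine. Its log2 signal was 11.91, 11.81 and 11.79 in TNC + TLR4i, 11.07, 11.01 and 10.96 in TNC + vehicle, and 12.19, 11.97 and 12.05 in untreated arrays. The 3 groups did not overlap, with untreated arrays on top. The means were 11.84 ± 0.0606 in TNC + TLR4i, 11.01 ± 0.0537 in TNC + vehicle and 12.07 ± 0.111 in untreated arrays (SD, n = 3 each). Mrc1 was 2.08-fold lower in TNC + vehicle than in untreated cells (log2 difference -1.05 ± 0.07 SE, adjusted p = 9.39e-07) and 1.77-fold higher in TNC + TLR4i than in TNC + vehicle (0.82 ± 0.07 SE, adjusted p = 2.5e-06). Against untreated cells TNC + TLR4i differed by -0.23 ± 0.07 SE, with an interval of -0.39 to -0.07 and an adjusted p of 0.336, which was not called. With trend and robust eBayes the adjusted p (limma) of this difference was 0.0323, still under the minimum fold. The fall with TNC ran from -1.10 to -0.99 with each array left out in turn.

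Stab1 encodes stabilin-1, a scavenger receptor of macrophages and sinusoidal endothelium that clears modified lipoproteins and matrix fragments. Its log2 signal was 10.56, 10.80 and 10.68 in TNC + TLR4i, 9.71, 10.02 and 9.93 in TNC + vehicle, and 10.68, 10.60 and 10.77 in untreated arrays. All TNC + vehicle arrays were lower than all others, while the inhibitor and untreated arrays lay in 1 range. Stab1 was 1.74-fold lower in TNC + vehicle than in untreated cells (log2 difference -0.80 ± 0.09 SE, adjusted p = 3.46e-05) and 1.74-fold higher in TNC + TLR4i than in TNC + vehicle (0.80 ± 0.09 SE, adjusted p = 4.43e-05). In TNC + TLR4i against untreated cells the interval was -0.17 to 0.16 (adjusted p = 0.995). Stab1 was lower in the TNC + vehicle arrays, where the endothelial marker sum was highest, mostly through Kdr in replicates 2 and 3, and the part of that list in the result was not tested.

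**Figure D2:**
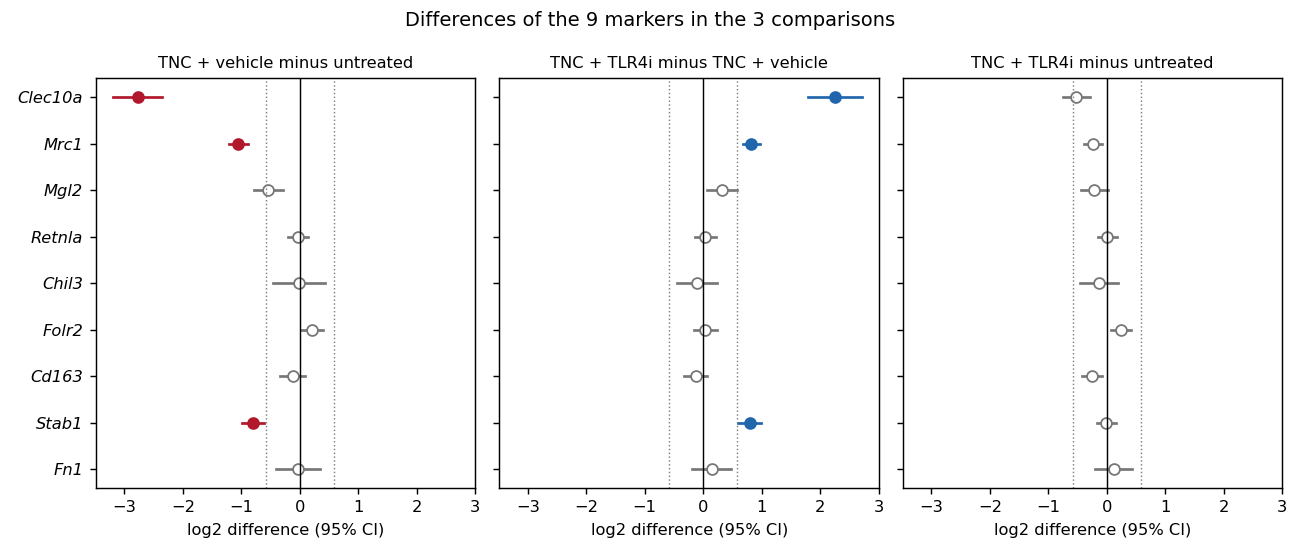
Log2 differences (x axis) of the 9 markers (y axis) in the 3 comparisons, with 95% confidence intervals from limma; filled points were called, blue higher and red lower, open points were not, and dotted lines mark a 1.5-fold change. Clec10a, Mrc1 and Stab1 were the called genes in the first 2 comparisons, with differences of -2.77, -1.05 and -0.80 in TNC + vehicle against untreated, and no marker was called in TNC + TLR4i against untreated cells.

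Promoters of the markers were searched for 2 motifs because 3 of the markers moved together. The first was TTCNNNNGAA, the paired half-site that STAT6 prefers, and the second GAGGAA, the purine-rich core bound by the macrophage factor PU.1; both strands were read, and no match of one overlapped a match of the other. RefSeq promoters (GRCm38.p6, 250 bases before to 50 after the gene start) were at hand for 7 of the 9 genes, all but Clec10a and Fn1. The STAT6-type motif stood in the promoter of 1 of the 7, Retnla, beside 6.95% of 32851 promoters of that length, and the PU.1-type motif in 4, Mrc1, Mgl2, Retnla and Stab1, beside 28.3%. These shares count promoters and not genes, and a gene such as Folr2 can have several. The share of genes with a match was not computed. The 250 bases before the start are shown for Mrc1 (chr2:14229164-14229413, plus strand) and Stab1 (chr14:31168642-31168891, minus strand), called lower with TNC, and for Retnla (chr16:48842359-48842608, plus strand), the classic IL-4 target, with motif matches in capitals:
Mrc1: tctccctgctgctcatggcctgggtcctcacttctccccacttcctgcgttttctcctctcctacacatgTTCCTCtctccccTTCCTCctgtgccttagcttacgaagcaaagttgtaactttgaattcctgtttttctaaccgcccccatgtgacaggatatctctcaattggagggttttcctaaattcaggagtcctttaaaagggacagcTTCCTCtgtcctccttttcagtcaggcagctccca
Stab1: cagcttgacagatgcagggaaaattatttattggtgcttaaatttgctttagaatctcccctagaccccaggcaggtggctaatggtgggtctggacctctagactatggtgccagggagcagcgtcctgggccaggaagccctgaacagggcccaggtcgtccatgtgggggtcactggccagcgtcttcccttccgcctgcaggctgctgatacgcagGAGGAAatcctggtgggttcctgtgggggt
Retnla: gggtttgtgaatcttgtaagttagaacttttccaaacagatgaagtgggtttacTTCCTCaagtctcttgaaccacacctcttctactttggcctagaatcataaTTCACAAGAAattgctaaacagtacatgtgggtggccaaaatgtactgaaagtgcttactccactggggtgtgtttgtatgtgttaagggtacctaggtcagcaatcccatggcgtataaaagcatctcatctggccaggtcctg

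The 3 PU.1-type matches of Mrc1 began 180, 167 and 35 bases before the start, all on the opposite strand, and that of Stab1 30 bases before it on the strand of the gene. In Retnla the STAT6-type match began 145 bases before the start. A match is a run of letters and not a bound site, and factor binding was not measured.

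Retnla encodes resistin-like alpha and Chil3 a chitinase-like lectin; both are secreted proteins strongly induced by IL-4 in mouse macrophages. Both probe sets were dim, with means of 6.40 and 6.41 over the 9 arrays. The log2 signal of Retnla was 6.31, 6.41 and 6.51 in TNC + TLR4i, 6.25, 6.41 and 6.46 in TNC + vehicle, and 6.40, 6.49 and 6.31 in untreated arrays. The groups overlapped fully, and the differences were -0.03 in TNC + vehicle against untreated (interval -0.20 to 0.14, adjusted p = 0.856), 0.04 in TNC + TLR4i against TNC + vehicle (adjusted p = 0.817) and 0.01 in TNC + TLR4i against untreated (adjusted p = 0.991). Whether Retnla was expressed above background was not tested.

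The log2 signal of Chil3 was 6.25, 6.25 and 6.49 in TNC + TLR4i, 5.96, 6.68 and 6.68 in TNC + vehicle, and 6.33, 6.90 and 6.14 in untreated arrays. It varied more within groups than between them: the differences were -0.02 in TNC + vehicle against untreated (interval -0.46 to 0.43, adjusted p = 0.971), -0.11 in TNC + TLR4i against TNC + vehicle (adjusted p = 0.705) and -0.12 in TNC + TLR4i against untreated (adjusted p = 0.910). Neutrophils and their precursors also make Chil3 in mice. The summed signal of the 7 neutrophil markers measured was 1009 to 1200 in TNC + TLR4i, 1016 to 1466 in TNC + vehicle and 970 to 1728 in untreated arrays. It was highest in untreated replicate 2, the array with the highest Chil3, and in TNC + vehicle lowest in replicate 1, the array with the lowest. Its part in the spread of Chil3 was not tested. A second probe set that the annotation gives to both Chil3 and its near-identical neighbour Chil4 was not used, and the signal of such close copies is uncertain.

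Folr2 encodes folate receptor beta, a marker of resident macrophages and of cells grown in M-CSF. Its log2 signal was 11.66, 11.49 and 11.74 in TNC + TLR4i, 11.76, 11.47 and 11.55 in TNC + vehicle, and 11.31, 11.46 and 11.38 in untreated arrays. Both TNC groups lay just above the untreated arrays and overlapped with each other. The differences were 0.21 ± 0.08 SE in TNC + vehicle against untreated (interval 0.02 to 0.39, adjusted p = 0.103), 0.04 ± 0.09 SE in TNC + TLR4i against TNC + vehicle (interval -0.16 to 0.24, adjusted p = 0.834) and 0.25 ± 0.08 SE in TNC + TLR4i against untreated (interval 0.08 to 0.41, adjusted p = 0.337). None was called. In TNC + vehicle against untreated the adjusted p (limma) was 0.0201 with cyclic loess and 0.0336 with trend and robust eBayes, under the minimum fold. Folr2 was the only marker of the 9 with a positive difference in TNC + vehicle against untreated cells. Retnla, Chil3 and Fn1, all close to 0, turned positive under some alternatives.

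Cd163 encodes the scavenger receptor for haptoglobin-bound haemoglobin. Its mean over the 9 arrays was 7.19, above the median of all probe sets (6.72) but well below Folr2 (11.53) and Stab1 (10.42). Its log2 signal was 7.05, 6.99 and 7.16 in TNC + TLR4i, 7.05, 7.16 and 7.37 in TNC + vehicle, and 7.43, 7.34 and 7.17 in untreated arrays. The lowest untreated array and the highest TNC + TLR4i array were nearly level. The differences were -0.12 ± 0.10 SE in TNC + vehicle against untreated (interval -0.33 to 0.09, adjusted p = 0.435), -0.13 ± 0.09 SE in TNC + TLR4i against TNC + vehicle (interval -0.32 to 0.07, adjusted p = 0.384) and -0.25 ± 0.08 SE in TNC + TLR4i against untreated (interval -0.42 to -0.07, adjusted p = 0.366). None was called.

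Fn1 encodes fibronectin, the matrix glycoprotein that macrophages secrete and that integrins bind. Its brighter probe set had log2 signals of 10.63, 10.41 and 10.91 in TNC + TLR4i, 10.86, 10.44 and 10.22 in TNC + vehicle, and 10.49, 10.22 and 10.88 in untreated arrays. The groups overlapped, with differences of -0.03 in TNC + vehicle against untreated (interval -0.40 to 0.35, adjusted p = 0.940), 0.14 in TNC + TLR4i against TNC + vehicle (interval -0.19 to 0.48, adjusted p = 0.578) and 0.12 in TNC + TLR4i against untreated (interval -0.21 to 0.44, adjusted p = 0.916). The second probe set was dim, at a mean of 6.27, with differences of -0.14, 0.06 and -0.08 in these comparisons and none called.

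Fibroblasts are another rich source of fibronectin. The summed signal of the 8 fibroblast markers was 16986, 13981 and 16986 in TNC + TLR4i, 16329, 14355 and 14194 in TNC + vehicle, and 15969, 15473 and 18139 in untreated arrays (replicates 1, 2 and 3). In TNC + vehicle and in untreated cells the array with the highest sum had the highest Fn1, and in each group the array with the lowest sum had the lowest; in TNC + TLR4i replicates 1 and 3 had level sums. No fibroblast marker was called in any comparison (limma, 0 of 8), beside the shares of all genes given above. Some differed under the minimum fold, and 2 are named after their values were seen. With TNC, Dcn differed by 0.46 (limma, adjusted p = 0.00108) and Col3a1 by -0.47 (adjusted p = 0.0335). In TNC + TLR4i against TNC + vehicle Dcn differed by -0.55 (limma, adjusted p = 0.00750). The part of the fibroblast markers in the level of Fn1 was not tested.

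The other genes of the pathway were taken from lists; a gene may stand in more than 1 list, and each list is described by counts beside the background given above. The first held the ligands, receptors, kinases and factors of the IL-4 and STAT6 axis, of which 17 of 18 were measured. In TNC + vehicle against untreated cells 3 were called higher and 2 lower (median difference 0.07), and in TNC + TLR4i against TNC + vehicle 1 higher and 3 lower (median -0.08). The inhibitor of cytokine signalling Socs1 rose with TNC by 1.02, the interleukin-13 receptor chain Il13ra1 by 0.96 and the coactivator Ppargc1b by 0.69. Each was lower with the inhibitor than with vehicle, with differences of -1.15, -1.12 and -0.91.

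The nuclear receptor Pparg, which supports alternative activation, was among the genes that fell with TNC. It averaged 8.36 ± 0.0962 in TNC + TLR4i, 7.51 ± 0.108 in TNC + vehicle and 8.42 ± 0.120 in untreated arrays (SD, n = 3 each), a difference of -0.91 with TNC and of 0.85 with the inhibitor. The transcription factor Irf4 fell by 0.69 with TNC, and its difference of 0.49 in TNC + TLR4i against TNC + vehicle stayed under the minimum fold. The probe set of Irf4 was dim, with a mean of 6.65 over the 9 arrays, under the median of all probe sets. Stat6 itself, chosen after its value was seen, had 10.70 ± 0.0560 in TNC + TLR4i, 10.43 ± 0.0552 in TNC + vehicle and 10.65 ± 0.0550 in untreated arrays (SD, n = 3 each). Its difference of -0.22 with TNC had an adjusted p of 0.0323 and was under the minimum fold.

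Of 24 other genes used as markers of alternative activation, 22 were measured. In TNC + vehicle against untreated cells 6 were called higher and 4 lower (median 0.05), and in TNC + TLR4i against TNC + vehicle 4 higher and 7 lower (median -0.11). The scavenger receptor Msr1 was higher by 2.09, the crosslinking enzyme Tgm2 by 1.60, the chemokine Ccl22 by 1.19, and the interleukin-1 antagonist Il1rn and the arginine transporter Slc7a2 by 1.10 each. All 5 were lower with the inhibitor than with vehicle, by differences of -2.35, -1.31, -1.14, -1.37 and -0.96. The markers outside the 9 therefore moved in both directions with TNC.

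Arg1, the arginase induced by IL-4 and chosen after its value was seen, was at the floor. It had means of 5.97 ± 0.0277 in TNC + TLR4i, 6.10 ± 0.0203 in TNC + vehicle and 6.10 ± 0.0649 in untreated arrays (SD, n = 3 each). A further 3 genes of this list, also chosen after their values were seen, differed in TNC + TLR4i against untreated cells at an adjusted p under 0.05 without reaching the minimum fold. They were Il10 (-0.57, adjusted p = 0.00392), the fatty acid receptor Cd36 (0.53, adjusted p = 0.00280) and the transglutaminase subunit F13a1 (-0.52, adjusted p = 0.0362). In TNC + vehicle against untreated cells Il10 and Cd36 differed the other way, by 0.42 and -0.23, and were not called. The Il10 values of TNC + vehicle (7.13, 7.97 and 7.85) overlapped those of untreated arrays. In TNC + TLR4i against TNC + vehicle, limma called Il10 lower (-0.99, adjusted p = 0.000823) and Cd36 higher (0.76, adjusted p = 0.000112). F13a1 was called lower with TNC (-0.78), and its difference of 0.26 in TNC + TLR4i against TNC + vehicle was not called (adjusted p = 0.113).

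Among genes of resident macrophages and cells kept in M-CSF, 18 of 20 were measured. With TNC 2 were called higher and 1 lower (median -0.06), and in TNC + TLR4i against TNC + vehicle 1 higher and 2 lower (median -0.03). The phosphatidylserine receptor Timd4 rose 2.83-fold and the chemokine Pf4 by 0.99 on the log2 scale, while Gas6, a bridging ligand for the uptake of dying cells, fell (-1.16). These differed by -1.66, -1.14 and 1.36 in TNC + TLR4i against TNC + vehicle.

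Lectins and paralogs of the 9 markers were measured for 18 of 19 genes. With TNC 1 was called higher and 1 lower (median 0.08), and in TNC + TLR4i against TNC + vehicle also 1 higher and 1 lower (median -0.03). Clec4e, a lectin for microbial glycolipids, was higher by 4.40 and Clec7a, the receptor for fungal glucans, was lower (-0.62). With the inhibitor they differed from TNC + vehicle by -4.51 and 0.63.

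Of the receptors and matrix partners of fibronectin, 13 of 14 were measured. With TNC 3 were called higher and 2 lower (median 0.14), and in TNC + TLR4i against TNC + vehicle 3 higher and 3 lower (median -0.19). The heparan sulfate proteoglycan Sdc4 rose by 1.44 and the fibronectin receptor chain Itga5 by 0.70, besides Tgm2, while the matrix proteins Thbs1 and Tgfbi fell (-1.16 and -0.97). In TNC + TLR4i against TNC + vehicle Sdc4 differed by -1.68, Thbs1 by 1.12 and Tgfbi by 1.11, and Itga5 by -0.54, which was not called.

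In TNC + TLR4i against untreated cells limma called 0 genes of these 5 lists in either direction. At an unadjusted p under 0.05, where 4.83% of all genes were higher and 4.63% lower, it was 1 higher and 4 lower in the IL-4 axis, 2 higher and 4 lower among other markers, 2 higher and 2 lower among resident macrophage genes, 1 higher and 0 lower among lectins, and 3 higher and 2 lower among fibronectin partners. In a sixth list of 8 inflammatory genes that served as a check of the treatment, 7 were called higher with TNC and 7 lower in TNC + TLR4i against TNC + vehicle (medians 3.30 and -3.53), and 1, the chemokine Cxcl10, was lower in TNC + TLR4i than in untreated cells (-0.92, adjusted p = 0.0324).

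**Figure D3:**
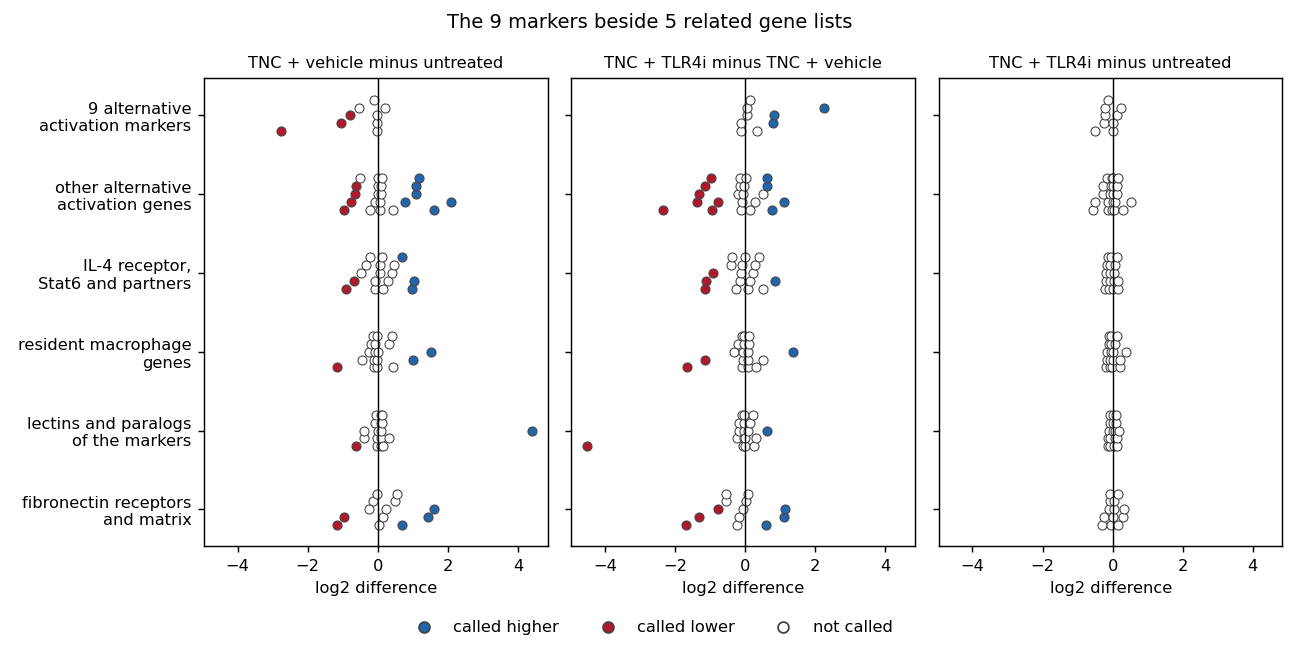
Log2 differences (x axis) of the 9 markers and of the measured genes of 5 related lists (y axis) in the 3 comparisons; each point is a gene, blue if called higher, red if called lower and white if not called, and points are spread vertically for sight only. With TNC the called markers were all lower, while the lists held called genes on both sides, such as 6 higher and 4 lower among other alternative activation genes.

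The genes with the pattern most like each called marker were found by Pearson's r over the 9 arrays, among 11120 genes above the median signal. The arrays fall into 3 groups, so r mainly reads the group means and is given as a description. For Clec10a these were Csk (r = 0.992), P2ry6 (0.991) and Ccdc22 (0.990). Mean log2 signals of P2ry6, a receptor for uridine nucleotides, were 12.08 in TNC + TLR4i, 11.46 in TNC + vehicle and 12.21 in untreated arrays. Clec10a shared with Csk, a kinase that restrains Src family kinases, the order of the groups and not the size, since the means of Csk were 9.45 in TNC + TLR4i, 9.14 in TNC + vehicle and 9.52 in untreated arrays.

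For Mrc1 they were Slc46a3, Rassf5 and Klhl11 (r = 0.995 each). Slc46a3, a lysosomal transporter, had means of 8.37 in TNC + TLR4i, 7.26 in TNC + vehicle and 8.59 in untreated arrays. For Stab1 they were Slc35b2 and Akap8l (r = 0.987 each) and Gpd1l (0.986). Akap8l had means of 8.77 in TNC + TLR4i, 8.23 in TNC + vehicle and 8.75 in untreated arrays, with the inhibitor and untreated arrays level as they were for Stab1.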

How the data were processed

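Bone marrow-derived macrophages were profiled on Affymetrix mouse arrays, 3 per group. The deposited values were log2 signals, which the authors made with RMA in Chipster. RMA equalizes the distributions of all arrays, so a change of total RNA would be hidden. Of 45101 probe sets, 64 array controls were set aside. The platform annotation tied 34945 probe sets to 1 gene and 932 to several, and left 9160 without one; names were used for single-gene probe sets alone. Where a gene had several, the brightest on average over the 9 arrays stood for it.

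Each comparison was a limma fit (version 3.58.1, R 4.3.3, lmFit and eBayes, two-sided) to the 6 arrays of its 2 groups, with Benjamini-Hochberg adjustment over 45037 probe sets. Calls required an adjusted p under 0.05 and at least 1.5-fold. On simulated data with known changes, the fit was tested before use. The members and lists were chosen with earlier results of these data known. All 9 markers were named, with up to 5 called genes of each list by size of change with TNC and up to 3 called in TNC + TLR4i against untreated, the 3 genes most like each called marker, and Tnf, Il1b and Acod1. Other names are marked in the text as picked after their values were seen.

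The following alternatives were tried: a single fit over all arrays; the replicate block; no dim probe sets; centring on array medians; cyclic loess; array weights; eBayes with trend and robust variance; averaging the probe sets of each gene; thresholds of 0.01 on the adjusted p, of 2-fold, and of no fold; and leaving out each array. The number of arrays limits the precision.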

Additional observations from a re-analysis of the deposited data

How the results depend on the processing

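The number of called markers was the same, 3 lower in TNC + vehicle against untreated, 3 higher in TNC + TLR4i against TNC + vehicle and 0 in TNC + TLR4i against untreated, under 1 fit over all arrays, dim probe sets left out, array medians subtracted, cyclic loess, trend and robust eBayes, array weights, averaged probe sets and an adjusted p under 0.01. Where dim probe sets were left out, Mgl2, Retnla and Chil3 were not tested. With no minimum fold the number of called markers was 4, 3 and 0, adding Mgl2. A minimum fold of 2 left 2, 1 and 0, losing Stab1 and, with the inhibitor, Mrc1. Leaving out 1 array gave 3 to 4, 3 to 3 and 0 to 1. Deviations of arrays with the same number correlated at -0.10 to 0.14, and those of arrays with different numbers at -0.12 to 0.10. Whether the numbers pair the arrays cannot be told from these values. Fits with the replicate block called 3, 3 and 0 markers. With the block, Mgl2 in TNC + TLR4i against TNC + vehicle had an adjusted p (limma) of 0.00561, beside 0.0691 without it. Its difference of 0.33 stayed under the minimum fold.

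Small differences that were never called changed sign. Under cyclic loess Fn1 differed by 0.052 in TNC + vehicle against untreated and Folr2 by -0.067 in TNC + TLR4i against TNC + vehicle, and under array weights Chil3 by 0.045 in TNC + vehicle against untreated. With 1 array left out, TNC + vehicle against untreated ran from -0.076 to 0.034 for Retnla, -0.18 to 0.22 for Chil3 and -0.20 to 0.15 for Fn1. TNC + TLR4i against TNC + vehicle ran from -0.026 to 0.086 for Retnla, -0.35 to 0.0099 for Chil3, -0.024 to 0.12 for Folr2 and -9.4e-05 to 0.32 for Fn1. TNC + TLR4i against untreated ran from -0.041 to 0.058 for Retnla, -0.28 to 0.097 for Chil3, -0.066 to 0.056 for Stab1 and -0.038 to 0.29 for Fn1. The cause was not tested.

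Over all genes, no minimum fold gave 5116, 5180 and 146 called genes and a minimum fold of 2 gave 518, 564 and 8, beside 1416, 1510 and 47. Averaged probe sets gave 1061, 1126 and 32, with 483 genes lower with TNC beside 736 and 498 higher in TNC + TLR4i against TNC + vehicle beside 774. Cyclic loess gave 736 higher and 638 lower with TNC, beside 680 and 736, and 634 higher and 825 lower with the inhibitor, beside 774 and 736. In TNC + TLR4i against untreated the count was 31 with trend and robust eBayes and 31 to 64 with 1 array left out. Dim probe sets limit Mgl2, Retnla and Chil3: any fold change they had would be understated, and expression above background was not tested. Tests had 3 arrays a group.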
